A study of Mus musculus with 6 samples.

Results

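The interferon-inducible p200 (PYHIN) family was followed through 6 genes, *Mnda*, *Ifi204*, *Ifi203*, *Ifi205*, *Aim2* and *Pyhin1*, which were selected on their values in these same arrays. The 6 genes are among 23152 genes measured, and they rest on 28 of the 269751 probe sets of the array, those that list a member as their only gene symbol. Probe sets of a gene were averaged on each array, as log2 RMA signals, where RMA is the method that corrects background, brings arrays to one distribution and summarizes probes. Since the comparison of the genotypes chose the members, their differences are given as a description, without a test.

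RNA came from testicular germ cells of mice of the FVB background at 22 days post-partum (dpp). Control males were *Mgat1*[F/F], with both alleles floxed and no Cre (n = 3), and mutant males were *Mgat1*[F/F]:Stra8-iCre (*Mgat1* cKO, n = 3), in which the Stra8 promoter drives Cre in spermatogonia and *Mgat1*, the gene of the enzyme that starts complex N-glycans, is deleted from these cells and their descendants. Germ cells were freed from the testis by enzymatic digestion and sedimentation, so cells of other types could remain, and each mouse had its own array. Litters are not named in the labels, and the methods report no sort of the cells.

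Proteins of the p200 family share a HIN domain, which binds DNA, and most also carry a pyrin domain, through which they meet other pyrin-domain proteins. AIM2 senses DNA in the cytoplasm and assembles an inflammasome with the adaptor ASC and caspase-1, and IFI204 acts in the induction of type I interferon by foreign DNA. Interferons raise many of these genes through factors that bind the interferon-stimulated response element (ISRE) in promoters, and the family is best known from macrophages and other leukocytes. In the mouse the genes lie side by side on chromosome 1, and close copies among them make it hard for a probe to tell neighbors apart. The symbols here are those of the array's older probe table. Current RefSeq names are *Ifi211* for *Mnda* and *Ifi209* for *Pyhin1*, while *Mndal* is another gene.

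The upstream sequences of both members at the ends of the range, the one that was lowest in the mutant against control and the one that was highest, are printed to show where the response element of interferons lies. RefSeq (GRCm38.p6, the C57BL/6J reference, not the FVB genome of these mice) gives a promoter for 5 of the 6 members. The 250 bases before the start site of *Mnda* are chr1:173913047-173913296 on the minus strand, and those of *Pyhin1* are chr1:173630609-173630858 on the plus strand. Capitals mark an ISRE core, searched as GAAA, NN (any bases) and GAAA in a row, on both strands.
*Mnda*: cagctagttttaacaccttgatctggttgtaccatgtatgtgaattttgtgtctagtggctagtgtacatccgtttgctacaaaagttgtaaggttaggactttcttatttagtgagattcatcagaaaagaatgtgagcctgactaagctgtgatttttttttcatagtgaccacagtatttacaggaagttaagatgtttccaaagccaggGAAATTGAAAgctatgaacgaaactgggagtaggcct
*Pyhin1*: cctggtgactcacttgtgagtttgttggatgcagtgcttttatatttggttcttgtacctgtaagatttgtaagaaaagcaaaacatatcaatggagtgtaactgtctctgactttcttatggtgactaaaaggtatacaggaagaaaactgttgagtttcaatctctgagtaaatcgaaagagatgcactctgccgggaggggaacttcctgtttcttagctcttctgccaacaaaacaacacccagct
The match of *Mnda* begins 37 bases before the start site, and the *Pyhin1* stretch holds no exact match.

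Of the 6 promoters of the 5 members with an entry, 3 held the ISRE core, belonging to *Mnda*, *Ifi203* and *Ifi205*. The other promoter entry of *Ifi203* held no match. Over all 32851 promoters of the same length, the core stood in 2.98%. It also stood in 6 of 7 promoters of the other genes of the locus, both entries of *Mndal* and those of *AI607873*, *Pydc3*, *Pydc4* and *Gm4955*, but not in that of *Ifi202b*. Windows of 60 bases around the match, on the minus strand, are shown so that the conserved core can be read beside that of *Mnda*. They are at chr1:174031860-174031919 (*Ifi205*) and chr1:173942498-173942557 (*Ifi203*) for members, and at chr1:173741821-173741880 for *AI607873*, another gene of the locus.
*Ifi205*: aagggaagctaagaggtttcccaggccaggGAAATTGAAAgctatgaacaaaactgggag
*Ifi203*: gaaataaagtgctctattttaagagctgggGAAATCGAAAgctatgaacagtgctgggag
*AI607873*: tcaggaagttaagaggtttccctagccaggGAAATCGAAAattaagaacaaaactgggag
At the same positions 53 of 60 bases of the *Ifi205* window, 51 of the *AI607873* window and 39 of the *Ifi203* window equalled those of *Mnda*, and the window of *Mndal* (chr1:173880194-173880253, minus strand) was identical to that of *Ifi203*. The match began 134 bases before the start site in *Ifi205* and 35 in *Ifi203*. The box of the myeloid factor PU.1 (GAGGAAGT, both strands) was in the promoter of *Aim2* alone among members and in 2.44% of all. No member promoter held both motifs, so overlap between them could not arise. A match is a match of letters and was not tested as a bound site. Other locus genes with an ISRE match had mutant differences of 0.55 (*Mndal*), 0.39 (*Pydc3*), 0.04 (*Pydc4*), -0.06 (*Gm4955*) and -0.2 (*AI607873*). Whether a match goes with a fall was not tested.

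The members did not move together. Means of *Mnda*, *Ifi204*, *Ifi203* and *Ifi205* were lower in *Mgat1* cKO than in control germ cells, the mean of *Aim2* was nearly the same, and that of *Pyhin1* was higher. The arrays of the 2 groups did not overlap for 3 members: all mutant arrays were below all control arrays for *Mnda* and *Ifi205*, and above them for *Pyhin1*. Over all genes, such a separation was found downward in 26.6% and upward in 20.1%. The median difference of the 6 members was -0.72, and that of all genes was -0.02. Cells of a type that are fewer and cells that hold less of a transcript cannot be told apart in these bulk samples.

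**Figure D1:**
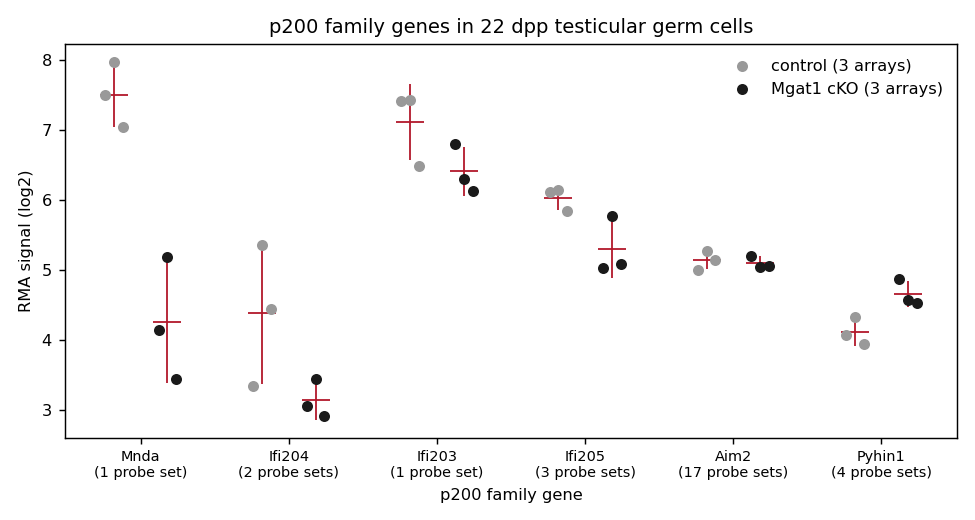
RMA signal (log2, y axis) of the 6 p200 genes (x axis, with the number of probe sets) on each of 3 control arrays (grey points) and 3 *Mgat1* cKO arrays (black points), with horizontal red marks for group means and vertical red lines for 1 SD. The *Mnda* groups lie 1.86 apart, those of *Ifi205* 0.06 and those of *Pyhin1* 0.20, while the groups of *Ifi204*, *Ifi203* and *Aim2* overlap.

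*Mnda* (*Ifi211*), a nuclear pyrin and HIN protein gene named for its expression in myeloid cells, stood lowest. Its 1 probe set gave log2 signals of 7.5, 7.98 and 7.05 on the control arrays and 4.15, 5.19 and 3.44 on the mutant arrays. Every mutant array was below every control array, by at least 1.86, and the third mutant mouse was lowest. The group means were 7.51 ± 0.465 and 4.26 ± 0.876 (SD, n = 3), a difference of -3.25 with a standard error (SE) of 0.57, or 9.52-fold lower. Ranked by the difference of means, *Mnda* was first among the falls of all 23152 genes. Since this comparison chose the members, the rank is a description and no test. The *Mnda* value has no second probe set behind it, as was the case for 2319 genes of the table. The median gene averaged 8 probe sets, and among the falls of all single probe sets that of *Mnda* had rank 30.

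*Ifi204* encodes a DNA sensor of macrophages. On its 2 probe sets, the mean log2 signals were 3.35, 5.36 and 4.44 in control and 3.06, 3.45 and 2.91 in *Mgat1* cKO germ cells. The groups overlapped, since the first control mouse lay below the second mutant mouse, while the second control mouse stood well above all others. The means were 4.38 ± 1.01 and 3.14 ± 0.282 (SD, n = 3), a difference of -1.24 (SE 0.61), or 2.37-fold lower. Without control replicate 2 the difference was -0.75, and without control replicate 1 it was -1.76. One probe set gave 2.94, 4.98 and 4.49 in control and 2.51, 2.9 and 2.63 in the mutant, with no overlap and a difference of -1.46. The other probe set gave 3.75, 5.74 and 4.39 against 3.6, 4.0 and 3.19, an overlapping pair of groups with a difference of -1.03. Both are among the dimmest 25% of all probe sets, where RMA compresses folds.

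*Ifi203*, which encodes a p200 protein with a HIN domain, was read by 1 probe set. Its log2 signals were 7.42, 7.44 and 6.49 in control and 6.81, 6.30 and 6.13 in the mutant. The third control mouse fell among the mutant mice, so the groups overlapped. The difference of the means, 7.12 ± 0.547 and 6.41 ± 0.358 (SD, n = 3), was -0.70 (SE 0.38), or 1.63-fold lower.

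*Ifi205*, a p200 gene close to *Ifi203* in the genome, gave mean log2 signals of 6.12, 6.15 and 5.84 over its 3 probe sets in control and 5.03, 5.78 and 5.09 in *Mgat1* cKO germ cells. The mutant arrays were all lower, but the second mutant mouse came within 0.06 of the lowest control. The means were 6.04 ± 0.174 and 5.30 ± 0.415 (SD, n = 3), a difference of -0.73 (SE 0.26), or 1.66-fold lower. No single probe set of *Ifi205* separated the groups. The differences of these probe sets were -0.58, -1.35 and -0.27, and the value with their median on each array in place of the mean was -0.34. The middle one, with the largest difference, gave 4.11, 5.02 and 5.10 in control and 2.92, 4.2 and 3.08 in the mutant, where the second mutant mouse was again the highest.

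*Aim2*, the inflammasome sensor, was read by 17 probe sets, the most of any member. Its mean log2 signals were 5.01, 5.27 and 5.15 in control and 5.21, 5.04 and 5.06 in the mutant, intermixed between the groups. The means were 5.14 ± 0.128 and 5.10 ± 0.0919 (SD, n = 3), a difference of -0.04 (SE 0.091), and the sign of this small value turned to 0.01 when arrays were centred on their medians. The mean joined probe sets that went apart, with 10 lower and 7 higher in the mutant and differences from -1.07 to 0.94. The brightest of them gave 8.37, 8.45 and 8.39 in control and 9.03, 8.91 and 9.01 in *Mgat1* cKO germ cells, with all mutant arrays higher and a difference of 0.58. A probe set of nearly the same brightness gave 8.37, 8.53 and 8.80 against 8.87, 8.55 and 8.90, with overlapping groups and a difference of 0.21. Of the 17, 10 were among the dimmest 25% of all probe sets. With the dimmest 25% of all probe sets left out the *Aim2* difference was 0.11, and with the dimmest 50% left out it was 0.39.

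*Pyhin1* (*Ifi209*), a pyrin and HIN protein gene, was the only member with a higher mean in the mutant. Its mean log2 signals over 4 probe sets were 4.07, 4.33 and 3.95 in control and 4.88, 4.58 and 4.53 in *Mgat1* cKO germ cells, with every mutant array above every control array. The means were 4.12 ± 0.197 and 4.66 ± 0.19 (SD, n = 3), a difference of 0.55 (SE 0.16), or 1.46-fold higher. Its probe sets split. One gave 2.83, 2.78 and 2.95 in control and 5.62, 5.29 and 4.92 in the mutant, a difference of 2.42, and another gave 6.26, 5.94 and 6.08 against 7.05, 7.09 and 6.43, a difference of 0.76. Both had no overlap, whereas the remaining pair had differences of -0.71 and -0.28 with overlapping groups.

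The second control mouse had the highest signal of its group for 6 of the 6 members, *Pyhin1* and *Aim2* included, and the third control mouse had the lowest for 4. Mutant mice shared no such order: the first was highest for 3 members (*Ifi203*, *Aim2* and *Pyhin1*), the second for the other 3, and the third was lowest for 4. The mean of the 6 members was 5.58, 6.09 and 5.48 in control and 4.86, 5.06 and 4.53 in the mutant, with means of 5.72 ± 0.325 and 4.81 ± 0.267 (SD, n = 3). The second control array also had the highest summed linear signal of macrophage markers (9009, against 7777 and 7713 in the other controls), of interferon-stimulated genes (9406) and of sensing and inflammasome genes (4928). Such sums weigh bright genes most. The macrophage marker *Cd74*, for instance, had log2 signals of 10.06, 10.79 and 10.43 in control, a large part of the difference between the control sums. In the mutant the sum of macrophage markers was lowest on the first array (5410, against 6924 and 6333), while the mean of the members was lowest on the third. The part of these cells in the order of the arrays was not tested.

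The 28 probe sets of the members were spread widely around 0. In the mutant 19 were lower and 9 higher, with a median difference of -0.23. All mutant arrays were below all control arrays for 2 probe sets and above them for 3, where 20.6% and 14.3% of all probe sets were so separated. A difference of at least 1 downward was found for 5 and upward for 1, while over all probe sets 4.21% fell and 5.61% rose by as much. The probe set of *Mnda* was 1 of 44 in the table that were lower by at least 3, or 0.0163%. Since the members were chosen on these differences, such shares describe the table and are not chance levels. Most probe sets of the family were dim: 26 of the 28 lay among the dimmest 50% of the table.

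**Figure D2:**
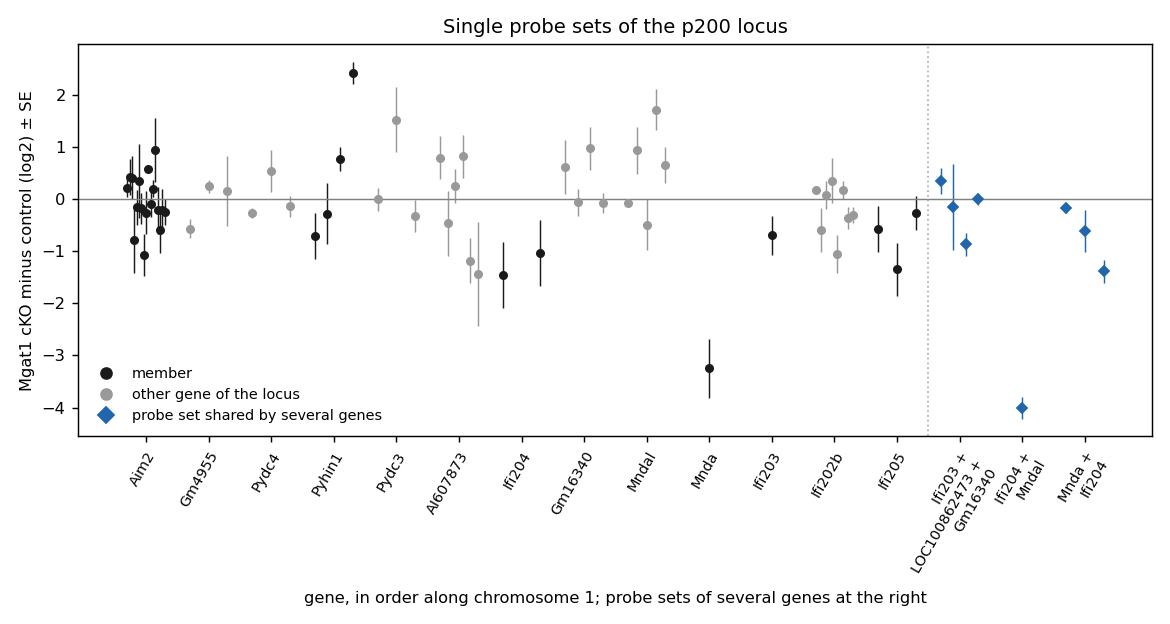
Difference between *Mgat1* cKO and control means (log2, y axis, with the SE of 3 against 3 arrays as vertical lines) of each probe set of the p200 locus, by gene in their order along chromosome 1 (x axis). Black points are members, grey points other genes of the locus and blue diamonds probe sets that list several genes; the lowest points are the probe set of *Ifi204* and *Mndal* (-4.0) and that of *Mnda* (-3.25), and the highest is a *Pyhin1* probe set (2.42).

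A further 8 probe sets list a member beside other p200 genes and entered no gene value. The one listed for *Ifi204* and *Mndal* gave log2 signals of 8.63, 9.11 and 8.59 in control and 4.70, 4.59 and 5.01 in *Mgat1* cKO germ cells. It separated the groups more widely than any probe set of a single member, with a difference of -4.0, and its rank among the falls of all probe sets was 6, where that of *Mnda* was 30. Which of the paralogs it read cannot be told apart. The 3 probe sets listed for *Mnda* and *Ifi204* together had differences of -1.39, -0.61 and -0.17. The first of these gave 6.91, 7.18 and 6.44 in control and 5.47, 5.50 and 5.39 in the mutant, a separation with close mutant values. In contrast, the last gave 7.95, 7.91 and 7.69 against 7.75, 7.73 and 7.57, so that signal listed for the same genes barely differed. With these shared probe sets counted for each gene they list, the difference of *Mnda* was -1.36 in place of -3.25 and that of *Ifi204* was -1.45. The 4 probe sets listed for *Ifi203*, *LOC100862473* and *Gm16340* ranged from -0.87 to 0.34, and counting them moved *Ifi203* to -0.28.

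The 7 other genes of the locus that were measured had a median difference of 0.04. In the fit over all genes (limma, called at a Benjamini-Hochberg adjusted p under 0.05), 2 were raised and 0 lowered, where 13.3% of all genes were raised and 18.4% lowered. There were 0 lowered at an unadjusted limma p under 0.05 and 1 by the methods' one-way test before adjustment. *Mndal*, a neighbor of *Mnda*, had log2 signals of 4.09, 4.13 and 4.23 in control and 4.45, 4.82 and 4.83 in the mutant, with no overlap. It was raised by 0.55 (limma, adjusted p = 0.0079), although the probe set it shares with *Ifi204* was lower. On its brightest probe set *Mndal* had 0.65 and did not pass the test. With shared probe sets counted for *Mndal*, its value turned to -0.21 (adjusted p = 0.177). *Gm16340* (*Ifi203-ps*) was raised by 0.36 (adjusted p = 0.0343), and its value was -0.06 on the brightest probe set. This call was lost on leaving out any single array but the first mutant one, with differences of 0.31 to 0.46. *Pydc3* had a difference of 0.39 (adjusted p = 0.0547), *Pydc4* 0.04, *Gm4955* -0.06, *Ifi202b* -0.19 and *AI607873* -0.20 (adjusted p = 0.811, 0.82, 0.133 and 0.429), none past the test. *Pydc3* passed it without control replicate 1 (0.48, adjusted p = 0.036) and with arrays centred on their medians (0.44, adjusted p = 0.0403), and its value was -0.26 with the median of its probe sets. Of their 32 probe sets 28 were among the dimmest 25% of the table.

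The genes on both sides of the locus were read as well. The 20 measured genes on each side were a window chosen after values had been seen. Of these 40 genes 7 were raised and 0 lowered (limma), beside 13.3% and 18.4% of all genes. At an unadjusted p under 0.05, 0 were lowered by limma or the one-way test. Differences ran from -0.24 to 0.82, with a median of 0.08. Of the 202 probe sets of these genes, 1 was lower (0.495%) and 11 were higher (5.45%) by at least 1, beside 4.21% and 5.61% over all probe sets. Many of the genes are olfactory receptor genes with low signals, where a fall could hardly show. *Olfr1406*, for instance, had means of 3.03 in control and 2.89 in the mutant.

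Genes of DNA and RNA sensing and of inflammasomes, only some of them partners of p200 proteins, showed more falls than rises. On a list of 29 measured genes, with the members left out, 15 were lowered (51.7%) and 2 raised (6.9%), beside 18.4% and 13.3% of all genes, with a median difference of -0.32 beside -0.02. *Il1b*, the cytokine gene whose product caspase-1 matures, had log2 signals of 6.33, 8.10 and 7.66 in control and 5.72, 5.71 and 5.48 in the mutant. All mutant arrays were lower and the control mice varied widely, and the difference was -1.73 (limma, adjusted p = 0.00639). *Tbk1*, the kinase that relays cytosolic DNA signals to interferon genes, fell by 0.81 (adjusted p = 0.000285), *Samhd1*, a dNTP hydrolase that restricts viruses, by 0.63 (adjusted p = 0.0048), and *Il18*, another caspase-1 substrate, by 0.60 (adjusted p = 0.0115). By contrast, the core of the AIM2 inflammasome did not pass the test. *Pycard*, which encodes ASC, gave 6.58, 6.51 and 6.58 against 6.54, 6.35 and 6.47, and *Casp1* gave 4.44, 4.90 and 4.46 against 4.31, 4.75 and 4.44, with differences of -0.11 and -0.10 (adjusted p = 0.416 and 0.657). The list count depended on the summary of probe sets and on 1 library: 6 were lowered with the brightest probe set of each gene, and 7 without *Mgat1* cKO replicate 1. On its brightest probe set *Tbk1* had -0.23 and *Il18* had -0.22, neither past the test.

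Interferons, their receptors and the JAK-STAT pathway, through which interferons reach p200 promoters, formed another list with more falls than rises. Of 19 measured genes 8 were lowered (42.1%) and 1 raised (5.26%), with a median of -0.25, beside 18.4% and 13.3% over all genes. *Socs3*, a feedback inhibitor of JAK kinases, fell by 0.79 (limma, adjusted p = 0.000247), and *Ifnar1*, a chain of the type I interferon receptor, by 0.58 (adjusted p = 0.00504). The kinase genes *Jak2* and *Jak1* fell by 0.65 and 0.56. *Jak2* had -0.59 on its brightest probe set and did not pass the test there. The interferon genes of the list had higher means in the mutant, at low signals. Their group means were 4.04 to 5.8, below the array medians of 7.31 to 7.38, and no detection call was used. *Ifne*, the 1 raised gene, had a difference of 0.34 (limma, adjusted p = 0.0472). *Ifng* had 0.27, *Ifnk* 0.2 and *Ifnb1* 0.12, none past the test (limma, adjusted p = 0.111, 0.149 and 0.379). By the methods' one-way test with the same adjustment, 4 genes of this list were lowered and 0 raised, and at an unadjusted p under 0.05 it had 9 lowered and 1 raised.

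Genes that interferon induces outside the p200 family were mixed. On a list of 58 measured interferon-stimulated genes, 14 were lowered and 4 raised, with a median difference of -0.22, and 40 did not pass the test. The percentages, 24.1 lowered and 6.9 raised, stand beside 18.4 and 13.3 over all genes. The guanylate-binding protein genes *Gbp2* and *Gbp7*, of cell defense against pathogens, fell by 0.82 and 0.79 (limma, adjusted p = 0.00109 and 0.00871), and the GTPase gene *Iigp1* fell by 0.80 (adjusted p = 0.0279). *Isg20*, an exonuclease gene, rose by 1.55 (adjusted p = 5e-06), the largest change on the list. On the brightest probe set alone *Gbp2* had -0.24 and *Gbp7* -1.08, neither past the test. The call of *Iigp1* was lost without control replicate 2 and without *Mgat1* cKO replicates 1 or 2, with differences from -1.02 to -0.58 over the arrays left out. Without control replicate 2 the list had 7 lowered genes, and without *Mgat1* cKO replicate 1 it had 8.

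**Figure D3:**
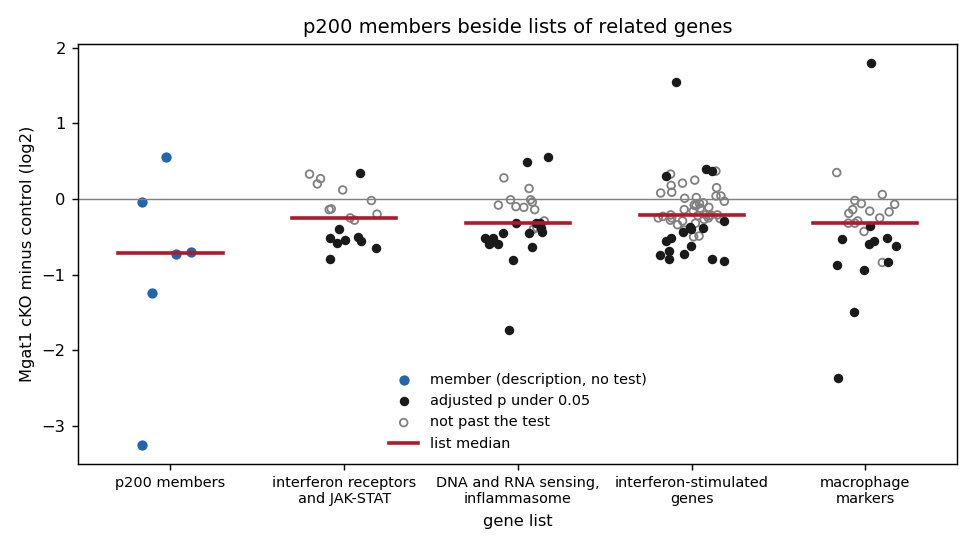
Difference between *Mgat1* cKO and control means (log2, y axis) of the 6 p200 members (blue, no test) and of the measured genes of 4 lists (x axis), with filled points for genes past the test (limma, adjusted p under 0.05), open points for others and red lines at list medians. The medians are -0.72 for the members, -0.25 for interferon receptors and JAK-STAT genes, -0.32 for sensing and inflammasome genes, -0.22 for interferon-stimulated genes and -0.32 for macrophage markers.

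Markers of macrophages, cells that express much of the p200 family, were also lower in part. Of 27 measured markers 11 were lowered (40.7%) and 1 was raised (3.7%), beside 18.4% and 13.3% of all genes. Their median difference was -0.32. Their summed linear signal, in which bright genes such as *Cd74* weigh most, was 7713 to 9009 in control and 5410 to 6924 in mutant germ cells. *Cd74*, which encodes the chaperone of MHC class II molecules, fell by 2.37 (limma, adjusted p = 0.000126), the protease gene *Ctss* by 1.5 (adjusted p = 0.00135) and the chemokine receptor gene *Cx3cr1* by 0.94 (adjusted p = 0.00021). *Aif1*, another marker on the list, rose by 1.80 (adjusted p = 2e-06), and it is also known to be expressed in spermatids of the rat. The log2 signal of *Cd68* was 8.41 to 8.94 in control and 7.92 to 8.74 in the mutant. Over all arrays *Emr1* had 6.49 to 6.94 and *Ptprc* 5.74 to 6.75, where array medians were 7.31 to 7.38 and no detection call was used. *Emr1*, which encodes F4/80, had a difference of -0.02, *Cd68* one of -0.32 and *Csf1r* one of -0.43 (adjusted p = 0.935, 0.288 and 0.152). *Ptprc*, the pan-leukocyte marker, fell by 0.56 (adjusted p = 0.0133), and *C1qa* fell by 0.52 (adjusted p = 0.0425), a call lost without control replicate 2 or without *Mgat1* cKO replicates 1 or 3. Without control replicate 2, 7 markers were lowered, as was the count without *Mgat1* cKO replicate 1. The part of macrophages in the p200 differences was not tested.

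Other cell types and the labels were read from their lists in the same fit, where 18.4% of all genes were lowered and 13.3% raised. The germ cell marker *Ddx4* had a log2 signal of 12.27 to 12.39. Of 19 germ cell markers 9 were raised and 5 lowered (summed linear signals of 39905 to 40719 in control and 46089 to 48980 in the mutant). Raised ones included the spermatid genes *Tnp2* and *Prm2*, so the sums do not count germ cells. Lowered ones included *Dazl* (-0.59) and *Sycp3* (-0.65, limma, adjusted p = 0.0106 and 0.00865). On its brightest probe set *Dazl* had -0.42 and did not pass the test. Lymphocyte, granulocyte and dendritic cell markers had 2 lowered and 4 raised of 26, with summed linear signals of 1573 to 1690 and 1578 to 1602. In peritubular and stromal cells 7 of 12 markers were lowered and in Sertoli cells 5 of 12, with sums of 5439 to 6834 against 3550 to 4584 and of 4843 to 5394 against 3598 to 4512. By the one-way test these counts were 2 and 0. The Sertoli count was 2 without *Mgat1* cKO replicate 2 or 3 or control replicate 3, 3 without control replicate 2, and 7 without *Mgat1* cKO replicate 1. Leydig cell markers had 1 lowered and 1 raised of 7 and varied widely between mice, with sums of 4692 to 7658 against 1462 to 5110. Of 10 endothelial markers 1 was lowered and 2 were raised. *Mgat1* had 6.91, 7.0 and 6.82 in control and 6.87, 6.69 and 6.80 in the mutant (difference -0.13, adjusted p = 0.356). Whether its probe sets lie in the deleted part is not stated, and this value therefore does not check the labels. Array correlations over all genes were 0.992 to 0.994 within a genotype and 0.95 to 0.97 between them.

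The genes with the pattern nearest to that of *Mnda* were found by the root mean square difference over the 6 arrays, after each gene was centred on its control mean and with members left out. *Cd74* was nearest, at 0.70, with 10.06, 10.79 and 10.43 in control and 7.89, 8.64 and 7.64 in the mutant. As for *Mnda*, its second control mouse was highest and the third mutant mouse lowest. *Serpina3n*, an inducible protease inhibitor gene, followed at 0.754, and *Zfp932* on 1 probe set (1.05), *Sfi1*, of a centrin-binding protein (1.07), and *4930451G09Rik* (1.08) came next. All 5 were lower on every mutant array than on every control array, with differences from -1.81 to -2.62 and thus smaller than that of *Mnda*.

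**Figure D4:**
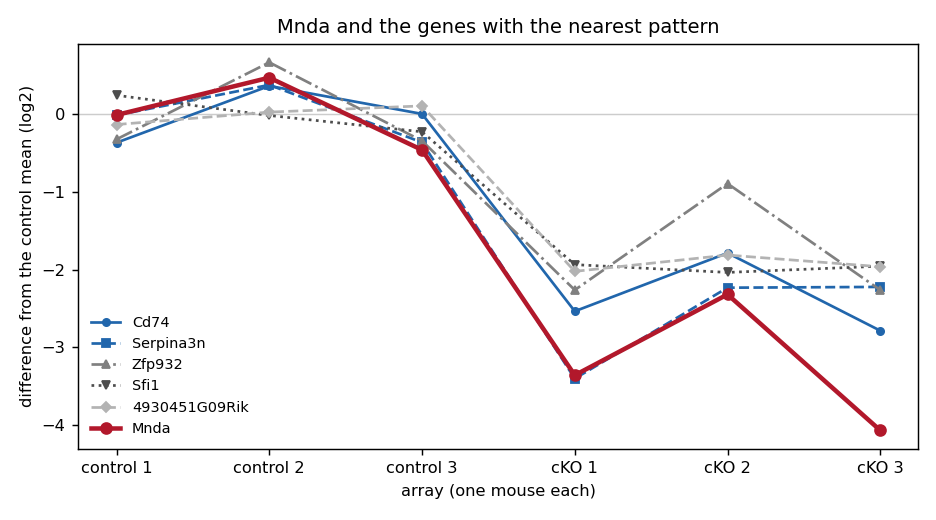
Log2 signal of *Mnda* (red) and of the 5 genes with the nearest pattern on each array (x axis, 1 mouse each), as the difference from the mean of the 3 control arrays of that gene (y axis). All 6 lines drop between control and mutant arrays, and *Mnda* is lowest on the third mutant array.

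The mean of the 6 members had its nearest genes at 0.11 to 0.121 on the same measure. They were *Ammecr1* (difference -0.89), *Gm6377* (-0.82), *Rel* (-0.92), which encodes the c-Rel subunit of NF-kappaB, *Xpnpep2* (-0.95), an aminopeptidase gene, and the long noncoding RNA gene *Malat1* (-0.88). *Xpnpep2* did not keep this direction on its brightest probe set, where its value was 0.27, and *Gm6377* did not pass the test without *Mgat1* cKO replicate 3. Genes drawn from 23152 for their likeness will resemble the pattern by that choice, and no test was made.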

How the data were processed

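RNA of 6 mice was hybridized to Affymetrix Mouse Gene 2.0 ST arrays. The authors processed the scanner files with RMA in Expression Console, and the deposited values are log2 RMA signals, 1 per probe set and array (2.11 to 14.33, array medians 7.31 to 7.38). The version of Expression Console and the genome build: not given in the sources used here. By its construction, RMA hides changes in total mRNA and compresses low folds, and no detection values were used. Of 269751 probe sets, 233753 listed a single gene, 5139 several and 30859 none.

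Genes (median 8 probe sets) were compared with limma 3.58.1 (lmFit, eBayes, 2-sided) in R 4.3.3, without covariates or a filter, and so were single probe sets. The median limma SE was 0.11 for genes and 0.21 for probe sets, and 3 arrays a group limit the precision. SE beside members is that of the difference of means. The members and lists were chosen with earlier results of these data known. Named genes were members, locus genes, the interferon genes of their list, defining markers and the nearest patterns. Up to 4 called genes with the largest difference were also named in the pathway and macrophage lists. Markers of remaining cell types are given as counts.

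Same-numbered arrays did not deviate together, so replicate numbers were not used as pairs. Alternatives were another gene summary, filters on dim probe sets, another scaling, the methods' one-way test, an intensity trend, a replicate block, shared probe sets counted, group medians and each array left out. On simulated data with 50 of 23152 genes changed per fold, limma recovered 60% at 1.5-fold, 80% at 2-fold, 98% at 4-fold and 100% at 8-fold, and 9 of 178 calls were false. In the data 4255 genes were lowered and 3088 raised, many more than were changed in the simulation. The simulated rates therefore describe the simulation and not these calls. Python 3.11.15 and matplotlib 3.10.9 made the figures.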

Additional observations from a re-analysis of the deposited data

How the results depend on the processing

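The signs of *Mnda*, *Ifi204*, *Ifi203*, *Ifi205* and *Pyhin1* held under every alternative that gave them a value. For some alternatives this was fixed in advance. *Mnda* and *Ifi203* have 1 probe set each, so the brightest and median summaries and the 25% filter could not change their values. The replicate block cannot change a difference of means between groups of equal size. *Mnda*, *Ifi204*, *Ifi203*, *Ifi205* and *Pyhin1* have no value with the dimmest 50% of probe sets left out, and *Ifi204* none at 25%. With shared probe sets counted *Mnda* had -1.36. *Ifi205* had -0.34 with the median of its probe sets. *Pyhin1* had 0.76 on its brightest probe set and with the dimmest 25% left out, and 0.78 with the median. *Aim2* had 0.58 on its brightest probe set, 0.11 with the dimmest 25% left out and 0.39 with the dimmest 50%. Leaving out 1 array gave -3.71 to -2.84 for *Mnda*, -1.76 to -0.75 for *Ifi204*, -1.02 to -0.54 for *Ifi203*, -0.97 to -0.60 for *Ifi205*, -0.11 to 0.02 for *Aim2* and 0.44 to 0.66 for *Pyhin1*.

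Genes lowered numbered 4255, with 2194 on the brightest probe set, 2629 with the median, 2408 by the one-way test and 2911 to 3737 with 1 array left out, and genes raised 3088, with 2369 to 3111. Of single probe sets 11086 were lowered, with 23807 under an intensity trend, 5635 by the one-way test and 2271 (without control replicate 2) to 6459 (without control replicate 1), and 13999 were raised, with 7796 (without *Mgat1* cKO replicate 1) to 12245 with 1 array left out. The replicate block gave 2925 lowered and 8495 raised probe sets. Deviations of same-numbered arrays had r of 0.0311, 0.102 and -0.0588, so they share only a number.

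Locus genes had 1 lowered with the dimmest 50% left out (*AI607873*, -1.18, limma adjusted p = 0.0221), and for raised 0 on the brightest probe set, with either dim filter, by the one-way test and with shared probe sets, 1 with the median, and 1 to 2 with 1 array left out, while centred arrays and the replicate block gave 3 with *Pydc3*. Sensing genes had 6 lowered on the brightest probe set, 9 and 8 with the dim filters, 8 with the median, 3 by the one-way test and 7 to 12 with 1 array left out, and raised 1 on the brightest probe set, 1 with the median, 0 by the one-way test and 2 to 3. Receptor and JAK-STAT genes had 4 lowered by the one-way test and 6 to 8 with 1 array left out, and raised 2 on the brightest probe set, 0 under the trend, the median and the one-way test, and 0 to 2. Interferon-stimulated genes had 8 lowered on the brightest probe set, 9 with the dimmest 50% left out, 4 by the one-way test and 7 to 15 with 1 array left out, and raised 2 on the brightest probe set and with the median, and 2 to 4. Macrophage markers had 5 lowered on the brightest probe set, 3 by the one-way test and 7 to 12 with 1 array left out, and raised 2 with centred arrays and 1 to 2.

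*Mndal* turned to -0.21 with shared probe sets counted, *Gm16340* to -0.06 on the brightest probe set and with either dim filter, and *Xpnpep2* to 0.27 on the brightest probe set and with the dimmest 50% left out. With the median of their probe sets *Samhd1* (-0.44), *Socs3* (-0.45), *Jak2* (-0.46), *Gbp7* (-0.52), *Ptprc* (-0.52), *Mndal* (0.89), *Iigp1* (-0.87), *C1qa* (-0.52) and *Gm6377* (-0.72) no longer passed the test, nor did *Mndal* by the one-way test (Benjamini-Hochberg adjusted p = 0.0621). The cause was not tested. Centring arrays moved all differences by 0.05. Other background corrections and the slide could not be tried on RMA values. With 26 of 28 member probe sets in the dimmer 50% of the table, low signal limits the folds.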
